A study of Mus musculus with 6 samples.

Results

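The genes of the proteasome were examined in 6 RNA-Seq libraries of primary mouse sympathetic neurons, of which 3 were Slit2fl/fl and 3 Slit2th. Slit2fl/fl mice, written SLIT2f/f in the labels, carry floxed Slit2 alleles, and in Slit2th mice, written SLIT2-knockout there, a Cre recombinase under the control of the Th promoter deletes the same floxed alleles in cells that use this promoter. By the study's RNA-Seq method, neurons of both groups were taken from sympathetic chains of male mice at 3 weeks of age and kept in culture for 4 to 5 days. The labels give sympathetic ganglion and neuron, but dorsal root neurons are named where the study describes their isolation, which leaves the material uncertain. The members are the rows whose symbol begins with Psm, 1 letter from a to g and a number, without the immunoproteasome genes Psmb8 and Psmb9, and 48 of the 20173 genes in the count table met this rule. One of them, Psmc3ip, is a factor of meiotic recombination that shares only the letters of its symbol, with counts of 10, 1 and 8 in Slit2fl/fl against 1, 1 and 0 in Slit2th, and was left out. The other 47 comprised 8 genes of the alpha ring and 9 of the beta ring of the core particle, 6 ATPases and 11 other subunits of the regulatory particle, 6 activators or inhibitors, and 7 assembly factors. Nothing in the labels says that the replicates came from separate cultures or animals, so the p-values measure only the spread between these libraries.

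The proteasome is the barrel-shaped protease that degrades proteins marked with ubiquitin. Its core particle stacks rings of alpha subunits, which gate the entrance, on rings of beta subunits, some of which carry the proteolytic sites, and the regulatory particle binds ubiquitin chains, removes them and threads the substrate into the core with a ring of ATPases. In neurons the proteasome turns over synaptic and axonal proteins, and immune signals can exchange the catalytic beta subunits for those of the immunoproteasome.

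Total counts were 1533367 to 3155406 in Slit2fl/fl and 1255939 to 1999485 in Slit2th, and the proteasome genes took 0.444% to 0.890% of them. The limit of detection, taken as 3 counts of a gene, was 0.951 to 2.39 CPM (the count scaled to library size) depending on the library, a limit that covers counting error only. Slit2 itself stood at 44.4, 54.99 and 43.7 CPM in Slit2fl/fl and at 14.96, 11.4 and 15.2 CPM in Slit2th. Th, which encodes tyrosine hydroxylase and marks sympathetic neurons, was at 0 in every library, and the 10 sympathetic neuron markers in the table summed to 127 to 337 CPM in Slit2fl/fl and 107 to 151 CPM in Slit2th. Glial and fibroblast markers were abundant, and the summed glial, macrophage and proliferation markers did not overlap between the genotypes. The 9 glial markers summed to 3956 to 11227 CPM in Slit2fl/fl and 12649 to 19194 CPM in Slit2th, the 8 fibroblast markers to 2298 to 3172 and 3076 to 4561, the 11 macrophage markers to 31.8 to 92.0 and 120.0 to 673, and the 8 proliferation markers to 314 to 415 and 164 to 302, and the 11 interferon-induced genes to 77.6 to 101 and 72.4 to 121. Slit2fl/fl replicate 1 had the lowest glial sum, 3956 CPM beside 10197 and 11227 CPM in replicates 2 and 3 of its group. This library also had the highest neuron marker sum, 337 CPM beside 128 and 127 CPM. In Slit2th, replicate 1 had the highest macrophage sum, 673 CPM beside 120.0 and 143 CPM. The part of these cell types in any difference below was not tested. In such bulk samples fewer cells of a type cannot be told apart from less RNA per cell.

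No gene of 12152 tested (0%) passed an adjusted p of 0.05 with edgeR's quasi-likelihood test, and therefore no proteasome gene did. DESeq2 called 31 genes and edgeR's exact test 17, with 0 proteasome genes among either. At an unadjusted p under 0.05, 1 of the 45 proteasome genes tested had higher levels in Slit2th (3.99% of all genes did) and 8 had lower levels (6.78% of all genes). The gene with higher levels was Psmc6, and those with lower levels were Psma7, Psmc5, Psmd13, Psmb3, Psmb5, Psme3, Psmb6 and Psme2. The count of 8 became 2 without Slit2fl/fl replicate 1 (4.34% of all genes were then lower), 5 without Slit2th replicate 2 (3.82%) and 4 without Slit2th replicate 3 (3.60%). The 3 libraries of Slit2th all lay above those of Slit2fl/fl for 2 proteasome genes (8.72% of all genes) and all lay below for 6 (9.74% of all genes). Across the 45 genes, 33 log2 fold changes were below 0 and 12 above, with a median of -0.29, beside 52.2% of all genes below 0 and a median of -0.05. Psma8, the testis form of an alpha subunit (counts of 0, 0 and 0 in Slit2fl/fl against 2, 0 and 1 in Slit2th), and Psmb11, the thymus form of a catalytic subunit (0, 0 and 0 against 1, 0 and 0), were at or below the limit of detection and were not tested.

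To compare genes with one another, the mean CPM was divided by the length of the principal transcript in kilobases. On this scale Psma7 was the most abundant member in both groups, at 1831 CPM per kb in Slit2fl/fl and 652 in Slit2th. Most subunits of the core and the regulatory particle lay between 30 and 250 CPM per kb in Slit2fl/fl, among them Psma4 (248), Psmb1 (213), Psmc1 (93.6) and Psmd1 (84.7). The catalytic genes were spread widely within Slit2fl/fl, with Psmb6 at 462, Psmb5 at 40.7 and Psmb7 at 11.3 CPM per kb, although their proteins are present in equal number in a core particle. Slit2fl/fl replicate 1 raised these means, and without it they were 112.9, 18.2 and 4.19 CPM per kb, in the same order. The assembly factors lay lower, with Psmd5 at 3.62, Psmg1 at 2.70 and Psmg3 at 3.97 CPM per kb in Slit2fl/fl and only Psmg4 above 50.

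**Figure D1:**
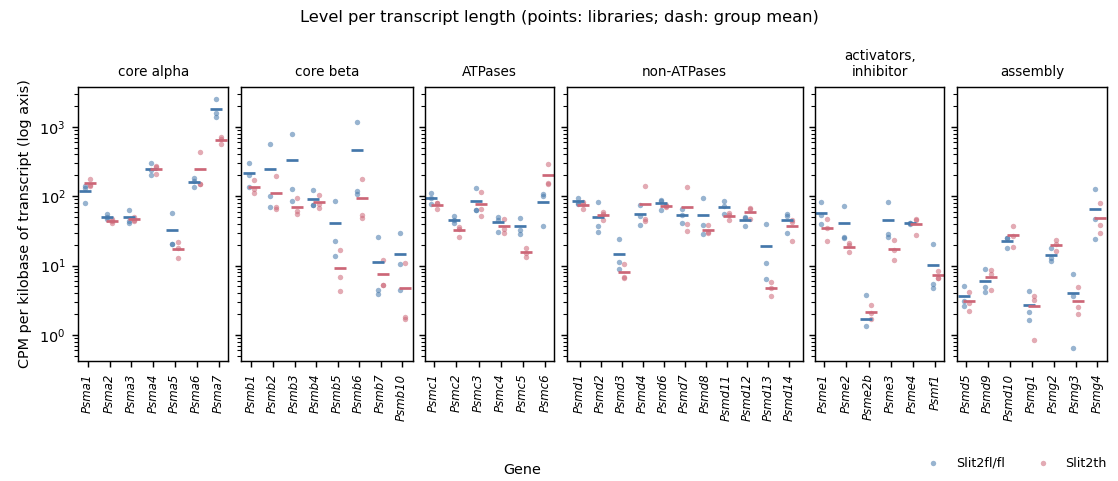
Level of each tested proteasome gene per transcript length, in CPM per kilobase on a log axis, by subgroup; points are libraries and dashes the means of the 3 libraries of Slit2fl/fl (blue) and Slit2th (red). Psma7 stands above all other genes in both groups, at means of 1831 and 652, and several beta ring genes have 1 Slit2fl/fl point far above the rest.

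Within the alpha ring, Psma7 was the only one of 7 tested genes with an unadjusted p under 0.05. Psma7 encodes an alpha subunit of the gated outer ring and lies at chr2:180036374-180042433 on the minus strand (GRCm38). Its level was 2299.8, 1268 and 1453 CPM in Slit2fl/fl replicates 1, 2 and 3 and, in the same order, 655, 617 and 517 CPM in Slit2th. Every Slit2th library was thus lower than every Slit2fl/fl library, with means of 1673 ± 550.2 and 596 ± 71.1 CPM (SD, n = 3). The log2 fold change was -1.49 (SE 0.36, unadjusted p = 0.00244 and adjusted p = 0.422 by edgeR's quasi-likelihood test), and the exact permutation test gave 0.1, the smallest p that 3 libraries against 3 allow. Leaving out single libraries moved it between -1.65 and -1.18. Without replicate 1 of both groups, 2.52% of the 11473 genes then tested were lower at an adjusted p under 0.05, and Psma7 was among them (-1.28, adjusted p = 0.00115 by edgeR).

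The remaining alpha subunits had log2 fold changes from -0.91 (Psma5) to 0.61 (Psma6), and Psma4 lay at 0.00. The value of Psma5 rested on Slit2fl/fl replicate 1 and was -0.23 without it. Psma6, the alpha gene with the highest fold change, stood at 190, 141 and 172 CPM in Slit2fl/fl and at 459, 154 and 157 CPM in Slit2th. Only Slit2th replicate 1 was high, the groups overlapped, and without replicate 1 of both groups the log2 fold change was -0.02. Psma1 did not overlap between the groups, but the gap between its highest Slit2fl/fl library (168 CPM) and its lowest Slit2th library (169 CPM) was small.

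All 8 tested genes of the beta ring had a log2 fold change below 0, with a median of -1.47, and all 8 had their highest level in the same library, Slit2fl/fl replicate 1. The 3 genes of this ring with an unadjusted p under 0.05 were Psmb3, Psmb5 and Psmb6, and none of the 8 separated the groups. Psmb5 encodes the subunit with chymotrypsin-like activity, the site that proteasome inhibitors such as bortezomib bind. It was at 77.0, 12.3 and 20.4 CPM in Slit2fl/fl and at 14.96, 3.81 and 6.20 CPM in Slit2th, so that 1 Slit2th library reached above the lowest Slit2fl/fl library. This gave a log2 fold change of -2.20 (SE 0.78, unadjusted p = 0.0199, adjusted p = 0.422 by edgeR), and it was -1.02 without Slit2fl/fl replicate 1.

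Psmb6, which encodes the subunit with caspase-like activity and lies at chr11:70525367-70527858 on the plus strand (GRCm38), was at 926, 95.1 and 85.2 CPM in Slit2fl/fl and at 142, 39.0 and 43.4 CPM in Slit2th. Slit2fl/fl replicate 1 exceeded the mean of replicates 2 and 3 by 10.3-fold, and in Slit2th replicate 1 was likewise the highest, at 3.44-fold. The log2 fold change of Psmb6 was -2.31 (SE 0.96, unadjusted p = 0.0384, adjusted p = 0.454 by edgeR), the lowest of all members, but -0.27 without Slit2fl/fl replicate 1. Without replicate 1 of both groups it was -1.14, and Psmb6 was then the only member besides Psma7 to pass (adjusted p = 0.0209 by edgeR). The size of its difference thus depended on which libraries were compared.

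Psmb7, which encodes the subunit with trypsin-like activity, likewise had a high replicate 1 in both groups, at 6.11-fold and 2.27-fold the mean of replicates 2 and 3. Its levels were 29.7, 5.18 and 4.54 CPM in Slit2fl/fl, against 14.1, 6.19 and 6.20 CPM in Slit2th. Unlike in Psmb6, apart from replicate 1 of each group the Slit2th libraries were the higher ones, on counts of only 13 and 11 against 8 and 8. The log2 fold change was -0.65 with all libraries and 0.34 without replicate 1 of both groups, and neither had an unadjusted p under 0.05. Part of its exons (405 bases) overlaps Nek6 on the opposite strand, and reads of the pair can be told apart only if the counting used strand, which the sources used here do not give.

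Among the structural beta subunits, Psmb3 resembled Psmb6. It was at 596, 66.0 and 97.1 CPM in Slit2fl/fl and at 72.2, 42.9 and 46.8 CPM in Slit2th, with overlapping groups and a log2 fold change of -2.24 (SE 0.78, unadjusted p = 0.0182, adjusted p = 0.422 by edgeR). Without Slit2fl/fl replicate 1 its value was -0.59. Psmb4, at 143, 87.3 and 89.1 CPM against 123, 89.99 and 79.99 CPM, was nearly level between the groups (log2 fold change -0.13). Psmb1 (-0.64) and Psmb2 (-1.17) lay between them, but without Slit2fl/fl replicate 1 Psmb1 was at -0.32 and Psmb2 turned to 0.38. Without Slit2fl/fl replicate 1, the median of the ring was -0.29 and 5 of the 8 genes stayed below 0. That comparison keeps Slit2th replicate 1, which had the highest summed level of the ring in its group. When both replicate 1 libraries were left out, 7 of the 8 genes lay below 0, around a median of -0.61. Of these, 4 were lower at an unadjusted p under 0.05 by edgeR, beside 1182 of all 11473 genes then tested.

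Psmb10 encodes the immunoproteasome form of the trypsin-like subunit and takes the place of the Psmb7 product. It was at 39.3, 5.82 and 13.6 CPM in Slit2fl/fl and at 14.1, 2.38 and 2.25 CPM in Slit2th, where 2 libraries held only 5 and 4 counts. Its log2 fold change was -1.76 (SE 0.89, unadjusted p = 0.0777 by edgeR). It ranged from -3.07 without Slit2th replicate 1 to -0.74 without Slit2fl/fl replicate 1, and was -1.13 with offsets corrected for GC content. The log2 ratio of Psmb10 to Psmb7 counts within a library, which does not depend on library size, was 0.40, 0.16 and 1.53 in Slit2fl/fl, against 0.00, -1.30 and -1.35 in Slit2th. Each Slit2th ratio was lower than each Slit2fl/fl ratio, by 1.58 on average, and the two-sided exact permutation test gave 0.1, the smallest p the design allows. The ratio was not corrected for GC content, which was 56.5% in the Psmb10 transcript and 48.7% in that of Psmb7. With offsets corrected for it, the log2 fold change of Psmb7 was -0.6 (-0.65 uncorrected) and that of Psmb10 -1.13 (-1.76 uncorrected). The other immunoproteasome genes were scarce, with 10, 4 and 3 counts of Psmb8 in Slit2fl/fl against 2, 3 and 2 in Slit2th, and with 1 count of Psmb9 in a single library.

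**Figure D2:**
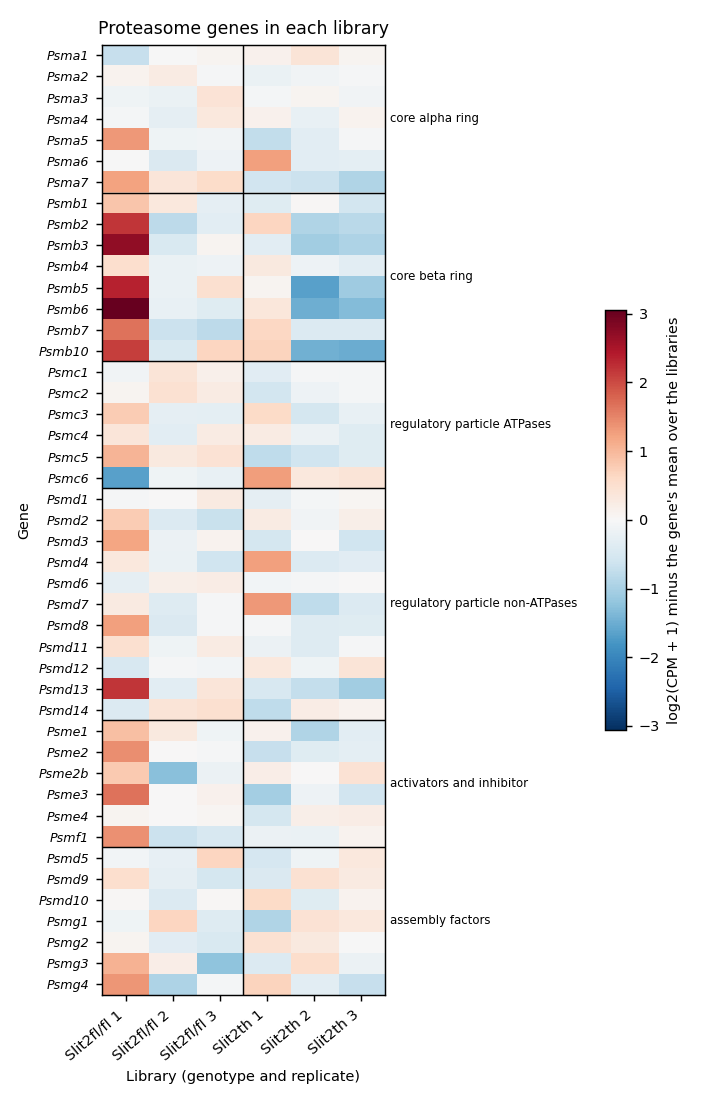
Level of each tested proteasome gene (rows, by subgroup) in each library (columns), as log2(CPM + 1) minus the mean of the gene over the 6 libraries; red is above and blue below that mean. The beta ring is darkest in Slit2fl/fl replicate 1, where all 8 of its genes had their highest level, while Psmc6 is lowest there.

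Among the 6 ATPases, which form the ring that unfolds substrates, Psmc5 was lower and Psmc6 higher in Slit2th at an unadjusted p under 0.05. Psmc5 was at 64.5, 38.2 and 42.6 CPM in Slit2fl/fl and at 17.6, 19.998 and 23.7 CPM in Slit2th. The groups did not overlap, and the log2 fold change was -1.24 (SE 0.38, unadjusted p = 0.0101, adjusted p = 0.422 by edgeR) and -0.98 without Slit2fl/fl replicate 1. Psmc6, at chr14:45329788-45349705 on the plus strand (GRCm38), was at 84.0, 244 and 227 CPM in Slit2fl/fl and at 650.5, 332 and 351 CPM in Slit2th. Psmc6 was lowest in Slit2fl/fl replicate 1, the library in which the beta ring was highest, and the replicate 1 libraries lay at both extremes, with 0.357-fold and 1.90-fold the mean of replicates 2 and 3 of their groups. The log2 fold change of Psmc6 was 1.27 (SE 0.48, unadjusted p = 0.0267, adjusted p = 0.429 by edgeR). It kept its sign but was 0.52 without replicate 1 of both groups. The products of Psmc5 and Psmc6 sit in the same ring in equal number, whereas their transcripts had log2 fold changes of opposite sign, neither of them past the adjusted threshold.

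As the only member with higher levels at that threshold, Psmc6 is shown with the 214 bases before its start that lie outside annotated exons (RefSeq, GRCm38.p6, chr14:45329574-45329787, plus strand). Capitals mark matches to TGANNNNGC on either strand, the core of the antioxidant response element to which Nfe2l1 and Nfe2l2, transcription factors of proteasome genes, bind.
Psmc6: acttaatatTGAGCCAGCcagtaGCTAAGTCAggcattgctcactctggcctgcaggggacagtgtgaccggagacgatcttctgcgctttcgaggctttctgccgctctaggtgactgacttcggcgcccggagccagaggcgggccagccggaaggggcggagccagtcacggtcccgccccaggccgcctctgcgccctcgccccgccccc
The stretch holds 2 such matches, which overlap no other motif searched.

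The other 4 ATPases lay between -0.52 and -0.16. Psmc2 was at 72.5, 93.8 and 80.6 CPM in Slit2fl/fl and at 45.8, 60.9 and 65.3 CPM in Slit2th, groups that did not overlap, with a log2 fold change of -0.52 (SE 0.33, unadjusted p = 0.155 by edgeR). Psmc1 was at 123, 176 and 148 CPM against 104, 129 and 128 CPM, and overlapped. These were even levels within each group, without the excess of replicate 1 seen in the beta ring. Psmc3 (218, 104 and 102 CPM against 188, 86.2 and 108) and Psmc4 (71.9, 44.6 and 65.8 CPM against 66.9, 49.0 and 42.8) overlapped too, with log2 fold changes of -0.16 and -0.20. In Psmc3 the replicate 1 library was the highest of both groups, at 2.12-fold and 1.94-fold the mean of the other libraries.

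The 11 remaining subunits of the regulatory particle form its lid, its scaffold and its ubiquitin receptors, and their median log2 fold change was -0.18, with 7 below 0 and 4 above. Psmd13, a lid subunit, was the exception. It was at 78.2, 12.9 and 21.6 CPM in Slit2fl/fl and at 11.4, 9.52 and 7.32 CPM in Slit2th, without overlap, and had a log2 fold change of -2.01 (SE 0.67, unadjusted p = 0.0151, adjusted p = 0.422 by edgeR). Slit2fl/fl replicate 1 again stood apart, 4.53-fold above the mean of replicates 2 and 3, and without it the value was -0.88. Psmd13 shares 342 exonic bases with Sirt3 on the opposite strand.

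Psmd14, the deubiquitinase that cuts ubiquitin chains from substrates, was at 45.4, 79.6 and 85.7 CPM in Slit2fl/fl and at 35.2, 70.9 and 65.3 CPM in Slit2th. The groups overlapped and replicate 1 was the lowest library of each, the reverse of the beta ring (log2 fold change -0.29, SE 0.41). Psmd4, a ubiquitin receptor, was at 98.4, 68.6 and 51.7 CPM against 190, 59.0 and 62.0 CPM. Its log2 fold change of 0.50, the highest of this subgroup, was set by Slit2th replicate 1 and was 0.00 without replicate 1 of both groups. The other 8 ranged from -0.90 (Psmd3, at -0.33 without Slit2fl/fl replicate 1) to 0.41 (Psmd12), and the large scaffold subunits Psmd1 (-0.18) and Psmd2 (0.09) were near 0.

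The activators bind the core in place of the regulatory particle. Psme1 and Psme2 encode the subunits of an interferon-inducible ring, Psme3 encodes its nuclear relative, Psme4 a large single-chain activator, and Psmf1 an inhibitor of the core. Psme3 was at 217, 68.6 and 74.9 CPM in Slit2fl/fl and at 32.6, 61.9 and 45.1 CPM in Slit2th, without overlap. This gave a log2 fold change of -1.37 (SE 0.52, unadjusted p = 0.0265, adjusted p = 0.429 by edgeR), and -0.62 without Slit2fl/fl replicate 1. Psme2 was at 68.7, 25.2 and 24.4 CPM against 14.96, 19.0 and 20.3 CPM, again without overlap (log2 fold change -1.13, SE 0.50, unadjusted p = 0.0491, adjusted p = 0.462 by edgeR). It was -0.45 without that library. In both genes the gap between the groups was narrow once Slit2fl/fl replicate 1 was set aside.

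Of the lower members, Psme3 has an upstream stretch that lies wholly outside annotated exons, and its 250 bases before the start are shown for comparison with Psmc6 (RefSeq, GRCm38.p6, chr11:101315963-101316212, plus strand), with capitals marking the other motif searched, CCAAT on either strand.
Psme3: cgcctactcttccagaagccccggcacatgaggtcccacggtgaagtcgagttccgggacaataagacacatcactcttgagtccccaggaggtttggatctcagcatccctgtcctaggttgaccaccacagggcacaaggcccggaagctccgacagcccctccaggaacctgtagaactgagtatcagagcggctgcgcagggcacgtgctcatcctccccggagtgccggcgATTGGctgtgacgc
It holds 1 CCAAT match and no TGANNNNGC match. Other members with lower levels did have TGANNNNGC matches in their promoter windows, such as Psmb5 with 2 and Psma7 with 1, while Psmc5 had 0. Whether the motif goes with the direction of the difference was not tested.

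Psme1, the partner of Psme2, was at 91.7, 58.9 and 43.7 CPM in Slit2fl/fl and at 52.8, 24.8 and 38.3 CPM in Slit2th, with overlap and a log2 fold change of -0.75 (SE 0.43). Set against Psme3 in the same library, the summed counts of Psme1 and Psme2 gave log2 ratios of -0.44, 0.29 and -0.14 in Slit2fl/fl against 1.05, -0.50 and 0.38 in Slit2th. The groups overlapped (difference 0.40, two-sided exact permutation p = 0.5). Psme4 was level, at 271, 257 and 268 CPM against 178, 291 and 300.2 CPM, with a log2 fold change of -0.05 (SE 0.33). Psmf1 was at 77.9, 18.1 and 20.4 CPM against 25.5, 25.2 and 31.5 CPM, and only Slit2fl/fl replicate 1 lay outside a narrow range. Its log2 fold change turned from -0.51 to 0.54 without replicate 1 of both groups. Psme2b, a near-identical intronless relative of Psme2 whose reads may be exchanged with it, was at 3.19, 0.00 and 1.14 CPM against 1.76, 1.43 and 2.25 CPM, at the limit of detection.

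The 7 assembly factors, which chaperone the core rings (Psmg1 to Psmg4) or the ATPase ring (Psmd5, Psmd9 and Psmd10), had a median log2 fold change of 0.02, with 4 above 0 and 3 below, and none had an unadjusted p under 0.05. Psmg2 had the highest value of 0.50 (SE 0.40), at 18.8, 13.6 and 12.5 CPM in Slit2fl/fl against 24.6, 21.9 and 17.5 CPM in Slit2th. Psmg4 had the lowest, -0.46 (SE 0.64), at 70.6, 13.6 and 26.1 CPM against 44.0, 21.4 and 16.3 CPM. Both overlapped between the groups. Psmg1 and Psmg3 were near the limit of detection, with mean levels of 2.82 and 3.503 CPM in Slit2fl/fl.

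**Figure D3:**
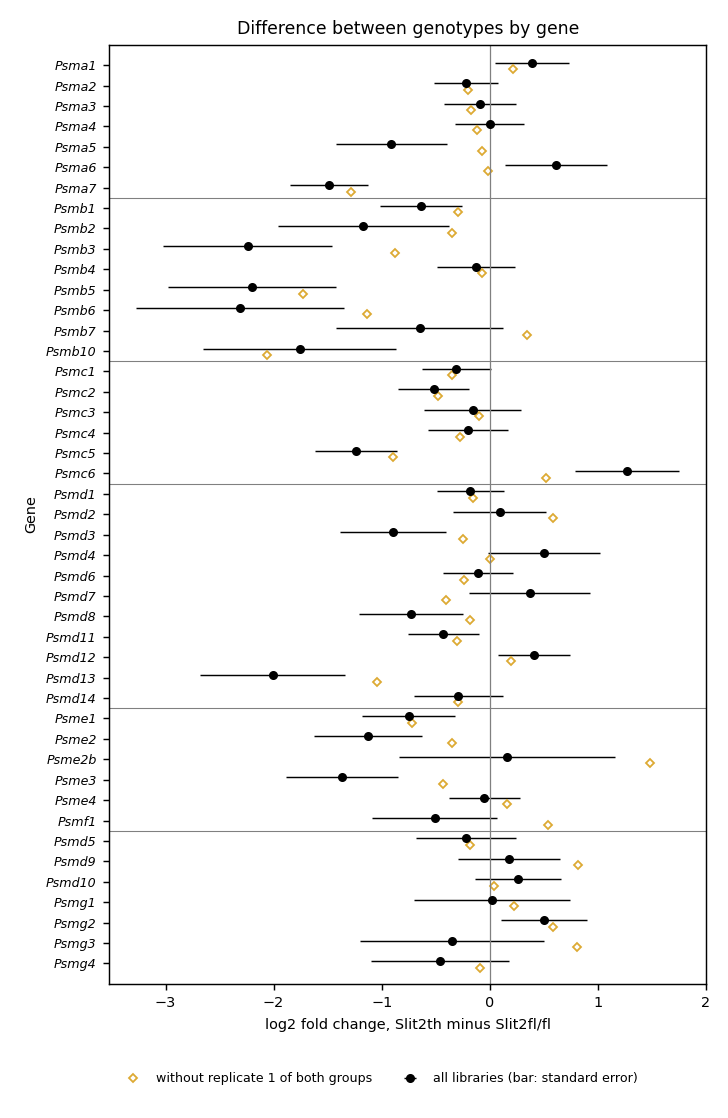
Log2 fold change of each tested proteasome gene, Slit2th minus Slit2fl/fl, on the horizontal axis; black points with bars are estimates and standard errors with all 6 libraries and open diamonds the estimates without replicate 1 of both groups. The lowest estimates with all libraries are those of Psmb6 (-2.31), Psmb3 (-2.24), Psmb5 (-2.20) and Psmd13 (-2.01), which lie at -1.14, -0.88, -1.73 and -1.04 without replicate 1, and that of Psma7 moves from -1.49 to -1.28.

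Around the proteasome, 30 of 31 listed genes of ubiquitin supply, shuttling, assembly and transcriptional control were tested, of which 18 were below 0 and 12 above, with a median of -0.10. At an unadjusted p under 0.05, 1 was higher in Slit2th (3.99% of all genes) and 3 were lower (6.78% of all genes), and none passed the adjusted threshold. Ubb, a polyubiquitin gene, was at 3135, 504 and 796 CPM in Slit2fl/fl and at 772, 344 and 350.4 CPM in Slit2th (log2 fold change -1.60, SE 0.68), with Slit2fl/fl replicate 1 far above the rest as in the beta ring. Adrm1, a ubiquitin receptor of the regulatory particle, had a log2 fold change of -1.34 (SE 0.55), and Ubqln4, a shuttle factor, -1.09 (SE 0.42). Ngly1, the glycanase that processes Nfe2l1 into its active form, was at 28.1, 36.9 and 34.6 CPM against 73.1, 62.4 and 55.8 CPM, without overlap, with a log2 fold change of 0.94 (SE 0.34, unadjusted p = 0.0221 by edgeR). Nfe2l1 and Nfe2l2 had values of -0.91 (SE 0.49) and 0.52 (SE 0.35), and Pomp, the maturation factor of the core, -1.05 (SE 0.57).

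Summed over all 47 genes, the level was 8970.5 CPM in Slit2fl/fl replicate 1 and 5036 and 5468 CPM in replicates 2 and 3, beside 5443, 4224 and 4230.5 CPM in Slit2th. The excess of the first library was unequal among subgroups. The beta ring summed to 2821, 693 and 635 CPM in Slit2fl/fl and to 775, 539 and 440.0 CPM in Slit2th, whereas the ATPases summed to 635, 700.0 and 666 CPM in Slit2fl/fl and to 1073, 678 and 718 CPM in Slit2th. The alpha ring, of which Psma7 is the most abundant gene in both groups, was at 3202, 2110.5 and 2489.8 CPM against 1868, 1518 and 1439 CPM, and its groups did not overlap. Slit2fl/fl replicate 1, the deepest library, held the highest level of 57.8% of the tested proteasome genes and of 29.8% of all tested genes.

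**Figure D4:**
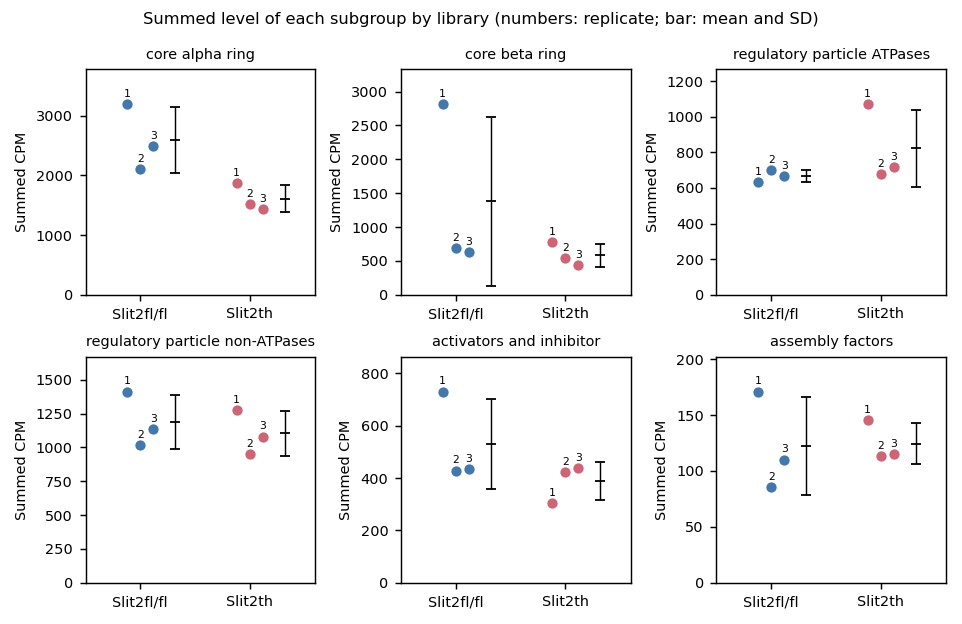
Summed CPM of each proteasome subgroup in each library, with replicate numbers beside the points and the mean ± SD of each genotype (n = 3). In the beta ring Slit2fl/fl replicate 1 stands at 2821 CPM and all other libraries at or below 775 CPM. In the alpha ring, where the sum includes the abundant Psma7, the groups are separate.

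The excess of this library differed with base composition. Across the 45 tested genes, the difference between Slit2fl/fl replicate 1 and the mean of replicates 2 and 3, on the log2 scale, had a Spearman correlation of 0.688 with the GC content of the transcript, beside 0.555 across 12146 genes. The log2 fold change between genotypes correlated at -0.529 with GC content across the 45 genes and at -0.345 across all genes. These are correlations across genes of the same 6 libraries, and genes are not independent replicates. Slit2fl/fl replicate 1 enters both the excess and the log2 fold change, with opposite sign, so correlations of opposite sign are partly built in. The 21 proteasome genes with a GC content of at least 50% had a median log2 fold change of -0.75, and the 24 below it -0.14, and with offsets corrected for GC content the medians were -0.31 and -0.25. Psma7 (51.6% GC) was then at -1.26, Psmb6 (55.8% GC) at -1.52 and Psmc6, the member with the lowest GC content (37.0%), at 0.99, and the beta ring as a whole at a median of -1.0. Across the 45 genes, transcript length had Spearman correlations of -0.411 with the excess of Slit2fl/fl replicate 1 and 0.237 with the log2 fold change. Across all genes these were -0.211 and 0.173. With offsets corrected for length, the median log2 fold change of the 45 genes was -0.12 (0.02 over all genes) and Psma7 was at -1.0. With offsets corrected for GC content that median was -0.28 (0.03 over all genes). The parts of base composition and length in the difference between genotypes were not tested beyond these values.

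**Figure D5:**
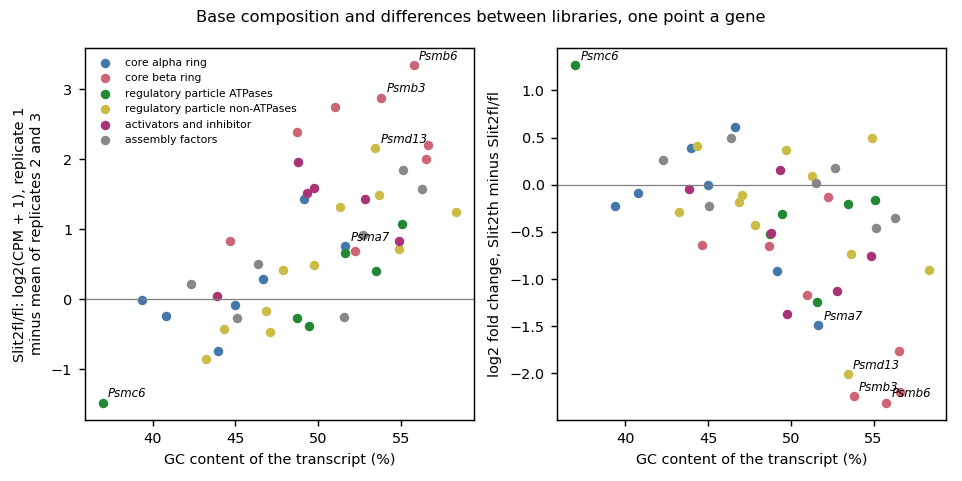
GC content of the transcript of each tested proteasome gene against its log2 difference between Slit2fl/fl replicate 1 and the mean of replicates 2 and 3 (left) and its log2 fold change between genotypes (right), 1 point per gene, coloured by subgroup. GC-rich genes such as Psmb6 and Psmb3 lie high on the left and low on the right, with Spearman correlations of 0.688 and -0.529. Slit2fl/fl replicate 1 enters both vertical axes, with opposite sign, so the panels are not independent.

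The proteasome genes had shorter transcripts than other genes (median 1440.0 and 2618 bases) and a like GC content (medians of 49.7% and 49.4%). By sequence, 9 of them had a copy elsewhere in the annotated transcripts at 95% identity or more over at least 50% of the transcript, among them Psmb3, Psmb5, Psma4, Psma5, Psmc1 and Psmd2, and for Psme2, Psme2b and Psmd11 that copy was itself in the count table, so their counts are uncertain. Exons of Psmc3, Psma4, Psmd1 and Psme1 overlap those of another gene in the table on the opposite strand. RefSeq promoter windows, from 250 bases before to 50 after a start, matched 39 of the 47 genes with 42 windows. TGANNNNGC occurred on either strand in 54.8% of these windows and in 41.3% of all 32851 windows, and CCAAT in 31.0% and 37.4%. Among the members lower at an unadjusted p under 0.05, Psmb5 had 2 TGANNNNGC matches, and Psma7, Psmb3, Psmb6 and Psmd13 had 1 each. Psme2 had 1 in each of its windows, and Psme3 and Psmc5 had 0. Of these lower members, Psmb3 had 2 CCAAT matches, Psma7 and Psme3 had 1 each, and Psmc5 had neither motif. Members without such a p, such as Psmc4 and Psmb10, had neither motif as well.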

How the data were processed

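The authors prepared the libraries with the TruSeq kit, aligned the reads with HISAT2 and deposited the reads counted on each of 20173 genes as whole numbers, without normalization. The study's methods name mm10 and the submitters' processing notes GRCm39, so the build is uncertain. The counting program, strand setting and annotation are not given in the sources used here. Gene identifiers were therefore joined to GENCODE M21 (GRCm38), where 20166 were found; positions, lengths, GC content and overlaps come from it, and sequences from RefSeq.

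Counts were scaled with TMM, and genes reaching 1 CPM in 3 or more libraries were compared with edgeR 4.0.16 (quasi-likelihood, no covariates, Benjamini-Hochberg adjusted p under 0.05) in R 4.3.3, with limma 3.58.1 and DESeq2 1.42.0. The common biological coefficient of variation was 50.4%. Log2 ratios of counts used a pseudocount of 0.5 and exact permutation tests. Near-identical copies were found with blastn 2.17.0. Values per library were given for the catalytic genes and Psmb10, the activators and inhibitor, Psmd14, the ATPases, genes with an unadjusted p under 0.05 and the extremes of each subgroup. The promoter stretches shown were those of genes with an unadjusted p under 0.05, groups without overlap, a single listed start and at least 150 bases outside annotated exons. The members, lists and motifs were chosen with earlier results of these data known. Other normalizations, filters, tests, a replicate block, libraries left out and offsets for GC content or length were tried as alternatives.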

Additional observations from a re-analysis of the deposited data

How the results depend on the processing

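With 3 libraries a group and a biological coefficient of variation of 50.4%, values near 0 do not show equal levels. Psma8, Psmb11, Psme2b, Psmg1 and Psmg3 were at or near the limit of detection. Of the 25 genes given by library, 15 kept the sign of their log2 fold change in all 18 settings, including all 9 with an unadjusted p under 0.05. The other 10 had sizes of at most 0.65. Some of the 25 were chosen by p-value or fold change in the main fit, and the settings reuse the same counts. Kept signs are therefore no independent support for these genes. Over all 45 tested genes, 19 changed sign when some single library was left out, the largest being Psmb2 (-1.17).

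The number of genes past the adjusted threshold was 0 and became 31 with DESeq2, 17 with edgeR's exact test, 7 without a filter on low counts, 377 without replicate 1 of both groups, and 0 to 1 with single libraries left out (1 without Slit2fl/fl replicate 1). The cause was not tested. The 1 higher proteasome gene became 3 with length-corrected offsets (581 of 12152 genes) and 2 without replicate 1 of both groups (817 of 11473 genes). With single libraries left out it became 0 to 2 (0 without Slit2fl/fl replicate 3 or Slit2th replicate 1). It was 2 without Slit2fl/fl replicate 1 (363 of 11772 genes). The 8 lower genes became 2 to 9, with 2 without Slit2fl/fl replicate 1 (4.34% of all genes). The settings with 9 were those without a filter on low counts or without Slit2fl/fl replicate 2 or 3, for which the share of all genes is not given here. The median of -0.29 stayed within -0.38 to -0.11. The log2 ratio of Psme1 plus Psme2 to Psme3 turned from 0.40 to -0.14 without replicate 1 of both groups.

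Signs reversed with GC-corrected and length-corrected offsets for Psmg4 (0.10 and 0.09), Psmc3 (0.31 and 0.11), Psmb4 (0.13 and 0.26) and Psmc4 (0.10 and 0.07), and without replicate 1 of both groups for Psme4 (0.16), Psma6 (-0.02), Psmb7 (0.34), Psmf1 (0.54) and Psmd4 (0.00). With single libraries left out, signs reversed within the ranges -0.17 to 0.16 (Psme4), -0.31 to 1.49 (Psme2b), -0.11 to 0.88 (Psma6), -0.97 to 0.45 (Psmg4), -0.54 to 0.32 (Psmc3), -1.13 to 0.82 (Psmb7), -0.90 to 0.51 (Psmf1), -0.27 to 0.79 (Psmd4) and -0.33 to 0.15 (Psmb4).

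The labels share replicate numbers between the groups. The deviations of same-numbered libraries correlated at 0.262, 0.208 and 0.0629 over genes, and 0.262 was the highest value of any pair across the groups. Slit2fl/fl replicate 2 correlated slightly better with Slit2th replicate 3 (0.223) than with its namesake (0.208). These values do not settle whether the numbers pair the samples, and the main fit used no pairing. In a fit that took the replicate numbers as a block, 0 genes passed the adjusted threshold, 1 proteasome gene was higher and 8 were lower at an unadjusted p under 0.05 (693 and 921 of all genes), and the median was -0.22. Psme2 lost its call there (unadjusted p = 0.074 by edgeR) and Psmb10 gained one (0.00709).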
